A study of Mus musculus with 2 samples.

Results

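The genes described here encode 42 proteins of the lysosome, the acidic compartment in which cells take apart glycosaminoglycans, glycoproteins, lipids, glycogen and proteins. They were listed by name and comprise 12 glycosidases, 5 sulphatases, 4 lipid hydrolases, 4 proteins that present lipids to these enzymes or carry cholesterol out, 9 cathepsins, 2 other peptidases, 5 membrane proteins and the transcription factor Tfeb. Of the 42, 41 had a probe set of their own symbol on the array and 40 reached a log2 signal of 7, the floor used for comparing a gene, in at least 1 array. Across the array, 9897 of 18193 genes did so. Cd63 is not named here, and Ctss read 4.37 and 4.22, under the floor in both arrays. Next to the floor on its upper side stood Npc1, with 7.59 and 7.22.

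Total RNA from cultures of rib chondrocytes, the matrix-producing cells of cartilage, was hybridised to Affymetrix Mouse Genome 430 2.0 arrays. The groups are a culture of wild-type mice and a culture of mice without miR-140 (miR-140 KO), a microRNA abundant in cartilage. Both carry the strain label C57BL/6 and CBA, an age of 5 days and the cell type chondrocyte, and the sources used here do not say how many mice stand behind a culture. The series was made to look for messenger RNAs that miR-140 acts on. With 1 array for each genotype there is no spread between cultures, so every difference below is the log2 signal of the knockout array minus that of the wild-type array and has no replicate check. A log2 difference of 1 is a 2-fold difference.

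Lysosomal hydrolases are made in the endoplasmic reticulum, and most of them are tagged with mannose 6-phosphate, which receptors recognise when sorting them towards the lysosome. There they work in sequence, so that the loss of a single enzyme lets its substrate build up; the inherited storage diseases follow from this, and those of glycosaminoglycan breakdown are known for their effects on the skeleton. Cartilage cells handle large amounts of glycosaminoglycan, the sugar chains of aggrecan. Tfeb and its relatives switch on many lysosomal genes together through promoter sites with the core CACGTG.

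The microRNA removed in the knockout and the promoter sequences of the group are shown first because they show a strand of the deleted product and the motif known from lysosomal promoters. Of the mature strands of miR-140, 5p and 3p, the 3p strand is printed from the RefSeq sequences used here (GRCm38.p6), from chr8:107551288-107551308 on the plus strand, with its seed, bases 2 to 8, in capitals. The array has no probe set for the mature microRNA, so its absence was not measured here.
miR-140-3p: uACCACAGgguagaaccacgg

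Promoter windows of the same table, 250 bases before to 50 after a gene's start, were found for 37 of the 42 genes. The motif CACGTG, which is its own reverse complement, stood in those of 13 (35.1% of the 37), against 8.09% of all 27025 genes in the table and 7.15% of all 32851 windows. The longer form TCACGTGA, which contains the shorter one, stood in 4 members, Gla, Ctsa, Ctsd and Mcoln1, and in 1.12% of all genes. These matches are letters in a window and were not measured as binding. The following stretches of 30 bases, written 5′ to 3′ on the gene's strand with the motif in capitals, show 1 match in each of those 4 members and 2 of the closely spaced matches of Lamp1.
Gla, chrX:134601182-134601211, minus strand: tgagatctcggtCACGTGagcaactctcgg
Ctsa, chr2:164833749-164833778, plus strand: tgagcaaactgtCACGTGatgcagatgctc
Ctsd, chr7:142387908-142387937, minus strand: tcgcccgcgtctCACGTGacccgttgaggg
Mcoln1, chr8:3500462-3500491, plus strand: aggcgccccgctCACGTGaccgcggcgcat
Lamp1, chr8:13159088-13159117, plus strand: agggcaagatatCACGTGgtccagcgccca
Lamp1, chr8:13159134-13159163, plus strand: acgtgaccacatCACGTGcggaacggagcc

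Galc, the member with the largest difference described below, had no CACGTG in its window. The 250 bases before its start, chr12:98259460-98259709 on the minus strand, are printed for comparison with the stretches above; no match says only that these letters are not there.
Galc: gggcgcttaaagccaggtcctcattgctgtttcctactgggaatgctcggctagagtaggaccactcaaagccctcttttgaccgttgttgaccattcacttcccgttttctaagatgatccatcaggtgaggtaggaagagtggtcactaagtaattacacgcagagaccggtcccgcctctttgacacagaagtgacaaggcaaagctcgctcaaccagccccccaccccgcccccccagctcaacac

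As a group, the lysosomal genes differed little between the arrays. Of the 40 above the floor, 23 had higher and 17 lower signal in the knockout array, where 40.0% of all genes above the floor had higher signal. This 40.0% is the share to set beside each count by class or list below, unless another setting is named. The median difference of the members was 0.05, against -0.05 for all genes. No member was at least 1.5-fold higher (1.56% of all genes were) and 1 was at least 1.5-fold lower, Galc (3.56% of all genes were). At the stricter 2-fold threshold the counts were again 0 and 1, beside 0.475% and 1.22% of all genes. Leaving out Galc, the other 39 members ran from -0.51 (Gaa) to 0.49 (Ctsk). The central 95% of all genes spanned -0.69 to 0.47 and held 38 of the 40 members, with Galc below it and Ctsk just above it.

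**Figure D1:**
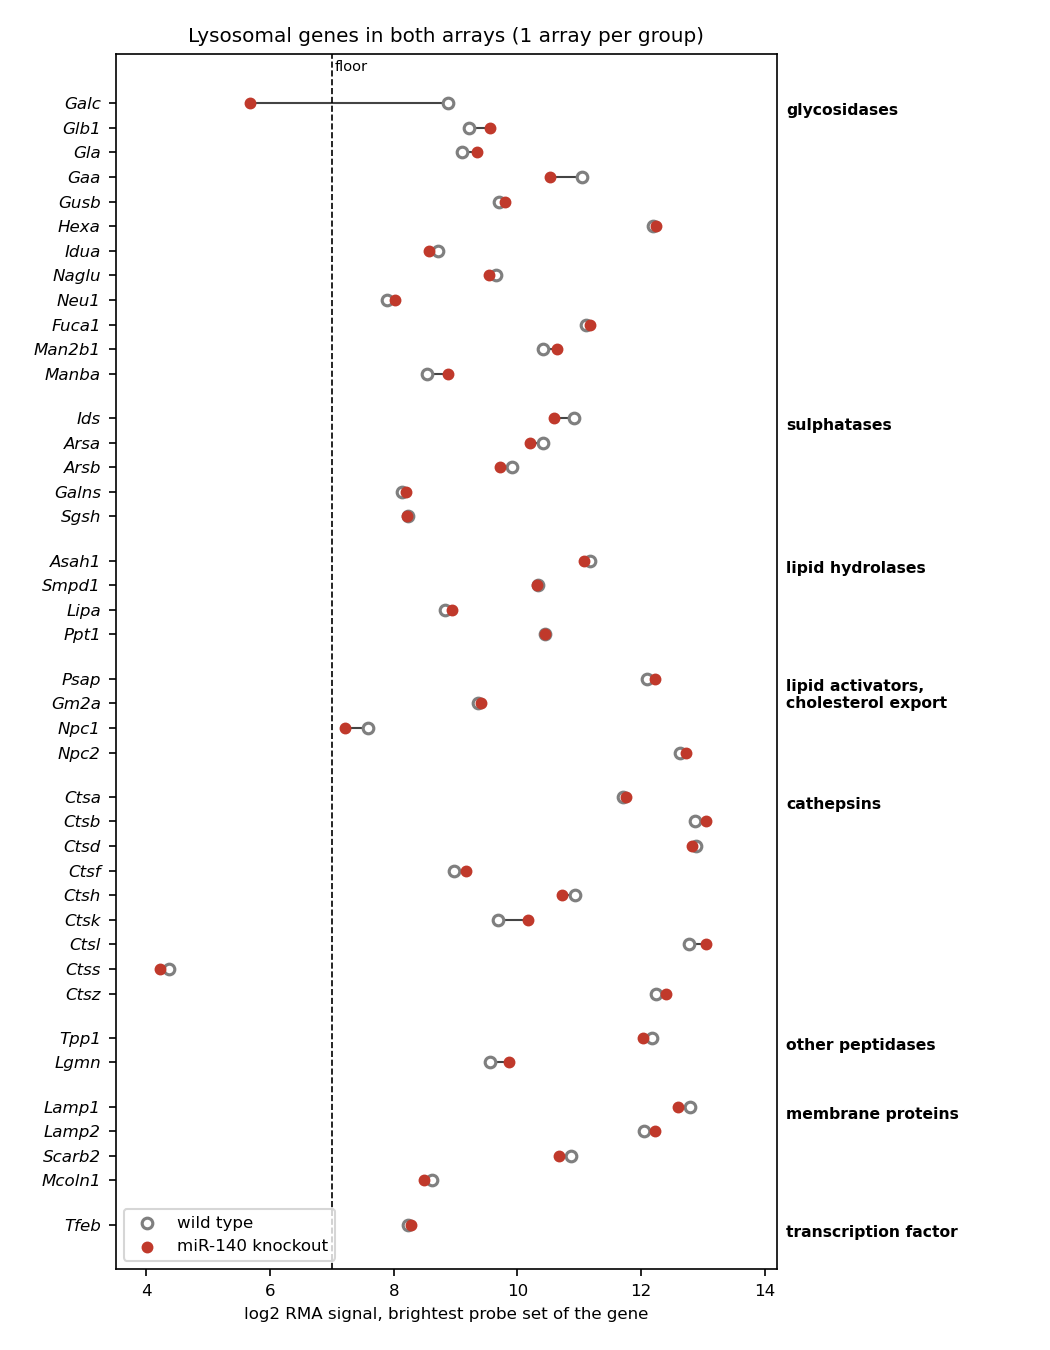
Log2 RMA signal (horizontal axis) of the brightest probe set of 41 lysosomal genes, by class, in the wild-type array (open grey circles) and the miR-140 knockout array (red circles), 1 array each; the dashed line is the floor of 7. Most pairs lie close together, whereas Galc reads 8.88 and 5.67, and Ctss is under the floor in both arrays.

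The share of genes with higher signal depends on where the arrays are centred. When each array was centred on the median of the genes above the floor, 25 of 40 members and 50.5% of all genes were higher. Averaging every probe set of a gene, 19 of 36 members (52.8%) were higher beside 45.7% of all genes, and the members' median was 0.01.

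**Figure D2:**
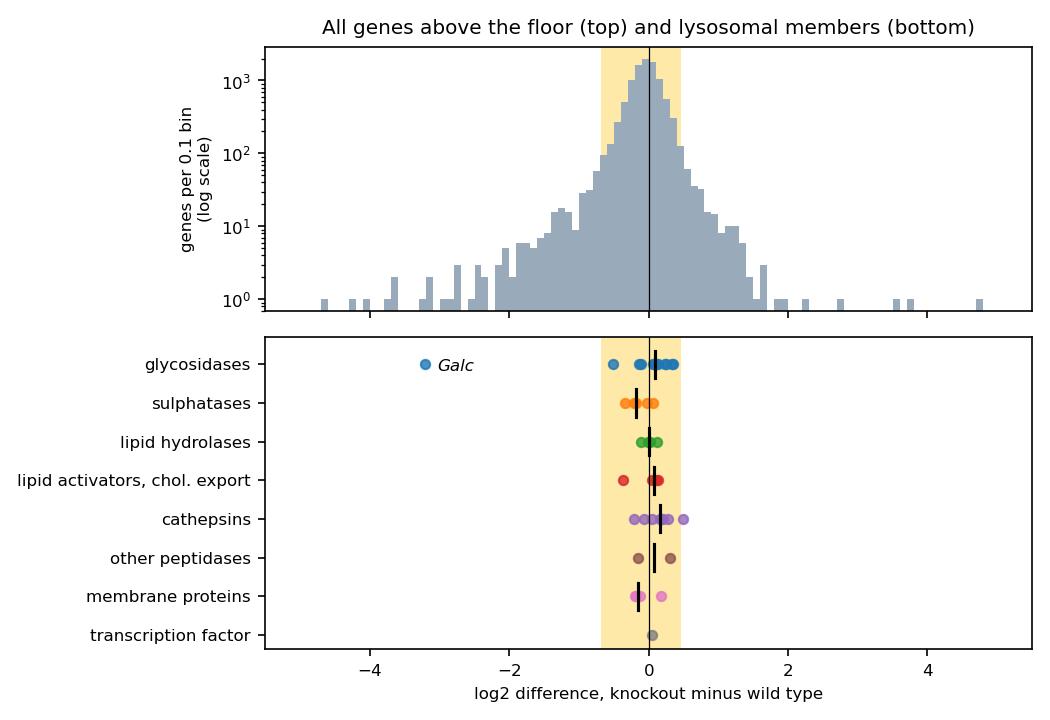
Top, histogram of the log2 difference, knockout minus wild type, of all 9897 genes above the floor (log count axis, bins of 0.1). Bottom, the 40 lysosomal members above the floor by class, with a black line at the median of each class of more than 1 gene; the yellow band is the central 95% of all genes, and Galc stands alone at -3.21.

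Galc encodes galactosylceramidase, which removes galactose from galactosylceramide and whose loss causes Krabbe disease. Its brightest probe set had a signal of 8.88 for wild type against 5.67 for knockout, which is -3.21 on the log2 scale, or 9.27-fold lower. The knockout value lies under the floor, so the gene was compared through its wild-type signal. With values under 7 raised to 7 the difference was -1.88 (3.69-fold lower), the 24th lowest of the 9897 genes.

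The other 2 Galc probe sets did not share this difference, and both were under the floor. One read 6.49 and 6.77, a difference of 0.28, and the other read 4.07 and 4.0, a difference of -0.06. The mean of the 3 differed by -1.0 and lay under the floor in both arrays. The lower Galc signal therefore rests on 1 probe set, and the reason for the disagreement was not tested.

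Coding genes beside Galc in the chromosome order of RefSeq, 5 on one side and 8 on the other, were looked at after its value was seen. They had no common direction. Flrt2, the named gene on one side, which encodes a membrane adhesion protein, read 8.58 and 9.90, a difference of 1.31 in the opposite direction to Galc. Gpr65, on the other side, was under the floor with 3.87 and 4.55. Over the 7 neighbours above the floor, differences ran from -0.33 (Ptpn21) to 1.31, with Zc3h14 at 0.10, Ttc8 at 0.08, Sel1l at 0.04, Foxn3 at -0.11 and Gtf2a1 at -0.19.

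Among the other glycosidases, Gaa had the largest difference. Gaa, acid alpha-glucosidase, breaks down glycogen, and its signal was 11.04 in wild-type and 10.53 in knockout cells (-0.51, 1.42-fold lower). A further Gaa probe set differed by -0.37, in the same direction. Both values are short of the 1.5-fold threshold.

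Of the enzymes that trim the sugar chains of glycoproteins, the 4 members grouped here stood slightly above their wild-type value in the knockout array. Aga (-0.19) and Man2b2 (-0.27), enzymes of such breakdown outside the members, stood below theirs. Glb1 and Hexa are given with glycosaminoglycan breakdown below. Manba, beta-mannosidase, read 8.54 and 8.88 (0.35). Man2b1, lysosomal alpha-mannosidase, read 10.41 and 10.65 (0.23), and its further probe set gave 0.20. Neu1, the lysosomal sialidase, read 7.89 and 8.03 (0.13). Fuca1, alpha-fucosidase, read 11.10 and 11.18 (0.08), and its 3 probe sets past the floor gave values of 0.08 to 0.56. This grouping, like the next ones by substrate, was made after the values were seen, and the median of the 6 genes was 0.11.

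Glycosaminoglycan breakdown, the branch closest to cartilage matrix, involves 9 of the members, and they had no common direction. In the knockout array 4 were higher and 5 lower, with a median of -0.02 that became 0.03 with median centring. Glb1, beta-galactosidase, which acts on keratan sulphate and gangliosides, read 9.23 and 9.56 (0.34). Gusb, beta-glucuronidase, read 9.70 and 9.80 (0.10), and Hexa, the alpha subunit of beta-hexosaminidase, read 12.19 and 12.25 (0.06).

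The remaining glycosidases that break down glycosaminoglycan chains stood slightly lower. Idua, alpha-L-iduronidase, read 8.71 and 8.57 (-0.13), and Naglu, alpha-N-acetylglucosaminidase, read 9.66 and 9.54 (-0.11). For Idua the direction was that of 1 probe set, since a further one read 7.49 and 8.03 (0.54).

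Sulphatases, which remove sulphate groups from these chains and from sulphatide, had a median of -0.18, and 4 of 5 were lower. Higher was 1 of 5 (20%), beside 40.0% of all genes. Ids, iduronate sulphatase, read 10.92 and 10.59 (-0.34). Arsb, which takes sulphate from dermatan and chondroitin sulphate, read 9.91 and 9.72 (-0.18). Arsa, the sulphatase of sulphatide, read 10.41 and 10.20 (-0.21).

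The other sulphatases were nearly equal in both arrays. Galns, which desulphates keratan sulphate and chondroitin sulphate and whose loss causes a skeletal storage disease, read 8.14 and 8.20 (0.06). Sgsh, the heparan N-sulphatase, read 8.23 and 8.21 (-0.02), and its sign turned with median centring (0.03). No sulphatase passed 1.5-fold, and the signs of Ids and Arsb turned when their probe sets, several of them under the floor, were averaged (0.02 each).

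Lipid hydrolases were, by brightest probe set, the class closest to 0, with a median of 0.00, 2 higher and 2 lower. With probe sets averaged, 1 of 4 was higher, beside 45.7% of all genes, and the median was -0.07. Asah1, acid ceramidase, read 11.18 and 11.08 (-0.10). Smpd1, acid sphingomyelinase, read 10.34 and 10.32 (-0.02), with a further probe set at -0.19. Ppt1, a thioesterase that removes palmitate from proteins, read 10.44 and 10.45 (0.01). Lipa, the acid lipase of cholesteryl esters and triglycerides, read 8.83 and 8.95 (0.11), but its 3 probe sets ranged from -0.39 to 0.17.

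Of the proteins that assist lipid breakdown, Psap, the precursor of the saposins, read 12.10 and 12.23 (0.13). Gm2a, the activator of ganglioside breakdown, read 9.36 and 9.41 (0.05). Gla, alpha-galactosidase A, the enzyme lost in Fabry disease, stood at 9.11 and 9.35 (0.25), with a further probe set at -0.07. Over the 9 members of sphingolipid breakdown, Glb1 among them, 5 were higher and 4 lower and the median was 0.05. Apart from Galc these 9 ran from -0.21 (Arsa) to 0.34 (Glb1). With probe sets averaged, 7 were above the floor. Of these 3 were higher, beside 45.7% of all genes, and the median was -0.01.

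The 2 cholesterol export proteins, which act together in carrying cholesterol out of the lysosome, pointed in opposite directions. Npc1 read 7.59 and 7.22 (-0.37, 1.29-fold lower), near the floor. Npc2 read 12.62 and 12.72 (0.10), and its 3 probe sets above the floor gave 0.10, 0.22 and 0.36.

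Cathepsins, the main proteases of the lysosome, had the highest median of the classes with more than 2 members, 0.17, with 6 of 8 higher in the knockout array. Of all genes 40.0% were higher. Ctsk, cathepsin K, a collagen-degrading protease best known from osteoclasts, read 9.69 and 10.18 (0.49, 1.4-fold higher), the 219th highest of all genes. Ctsl read 12.78 and 13.06 (0.28). Ctsb read 12.87 and 13.04 by its brightest probe set (0.17).

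All 5 Ctsb probe sets above the floor were higher in the knockout array, from 0.17 to 0.62, and the brightest gave the smallest difference. The remaining cathepsins were Ctsf (8.97 and 9.17), Ctsz (12.24 and 12.41), Ctsa (11.72 and 11.76), Ctsd (12.88 and 12.82) and Ctsh (10.93 and 10.72). Ctsh and Ctsd were the 2 with lower signal, at -0.21 and -0.06, and Ctsz, Ctsf and Ctsa stood at 0.16, 0.20 and 0.05. For Ctsf a further probe set gave -0.28.

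Ctss, cathepsin S of antigen-presenting cells, stayed under the floor, so its difference is not read. Averaged over all their probe sets, the cathepsins had a median of 0.09, and 5 of 8 were higher, beside 45.7% of all genes. The 9 glycosidases then above the floor, Galc not among them, had a median of 0.22. Ctsk is expressed by osteoclasts and by fibroblasts, and markers of those cells are given further on. Of the other peptidases, Lgmn, the asparagine-specific protease legumain, read 9.56 and 9.86 (0.30), and Tpp1, tripeptidyl peptidase, read 12.18 and 12.03 (-0.15), with a further probe set at -0.29.

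Membrane proteins of the lysosome had a median of -0.15, and 3 of 4 were lower. Higher was 1 of 4 (25%), beside 40.0% of all genes. Lamp1, a heavily glycosylated protein of the lysosomal membrane, read 12.80 and 12.60 (-0.20). Scarb2, the receptor that carries glucocerebrosidase to lysosomes, read 10.87 and 10.68 (-0.19), and Mcoln1, a calcium channel, read 8.61 and 8.49 (-0.12). Lamp2, which acts in autophagy, read 12.05 and 12.23 (0.18), and is counted as higher by this brightest probe set, but its 4 probe sets ranged from -0.13 to 0.35 and do not share a sign.

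Tfeb itself was nearly equal in both arrays, at 8.23 and 8.27 (0.04). The 13 members with CACGTG in their promoter window had a median of -0.02, from -0.51 (Gaa) to 0.34 (Glb1), with 6 higher. The 22 members above the floor without it had a median of 0.07, with 15 higher. Both medians lie within 0.1 of 0.

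Agreement between probe sets of the same gene was compared next. For 21 members with at least 2 probe sets above the floor, the median range between them was 0.23, against 0.25 over 3838 genes of the array. Signs differed for 5 of the 21 (23.8%): Gla, Idua, Lipa, Ctsf and Lamp2. Among all such genes the share was 46.7%. Of the 40 members 31 (77.5%) differed by less than 0.25, as did 74.2% of all genes. Disagreement between probe sets lies within an array pair and does not measure the spread between cultures.

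Gusb had the widest range. Its brightest probe set gave 0.10, while the other read 7.96 and 8.75 (0.79, 1.73-fold higher). Counting probe sets in place of genes, 42 of the 70 member probe sets above the floor were higher (60%; 44.3% over all named probe sets). At least 1.5-fold higher were 2 of the 70 (2.86%), one each of Gusb and Ctsb, and 1 (1.43%) was at least 1.5-fold lower. Over all 15862 named probe sets above the floor the shares were 3.24% and 3.28%.

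**Figure D3:**
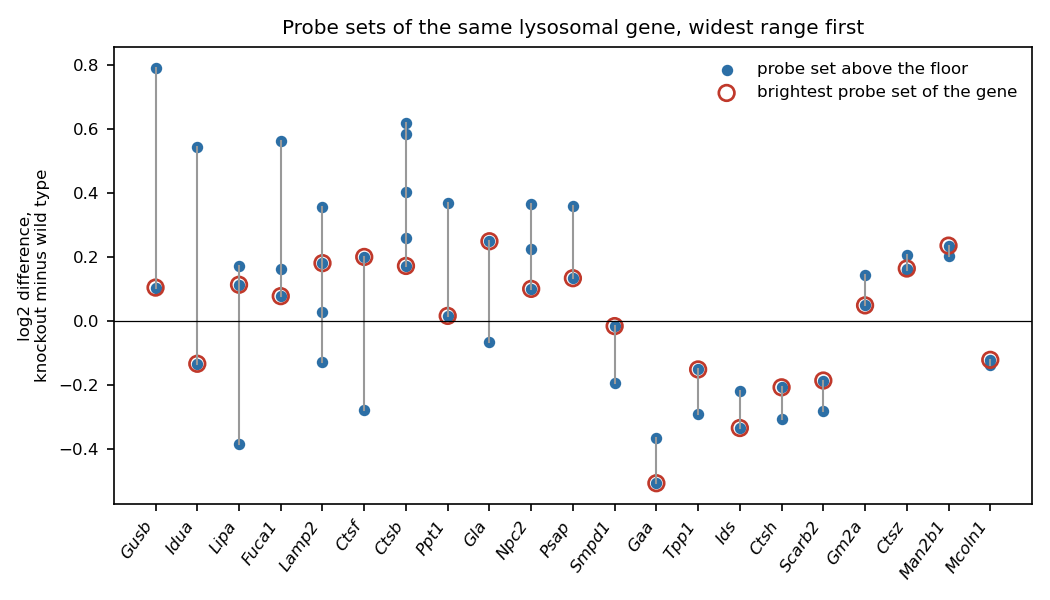
Log2 difference, knockout minus wild type (vertical axis), of each probe set above the floor for the 21 lysosomal genes with at least 2, ordered by their range; blue points are probe sets and red rings mark the brightest one of each gene. Gusb spans 0.10 to 0.79, all 5 Ctsb probe sets are above 0, and Gla, Idua, Lipa, Ctsf and Lamp2 have probe sets on both sides of 0.

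The remaining lysosomal machinery also stayed close to 0. Of 17 further lysosomal enzymes and cofactors above the floor, 10 were higher, with a median of 0.03. With probe sets averaged, 6 of 14 were higher, beside 45.7% of all genes, and the median was -0.08. Ctsc, cathepsin C, which activates proteases of immune cells, read 7.24 and 8.03 (0.79, 1.72-fold higher), with the wild-type signal near the floor. It was the 1 gene of these 17 at least 1.5-fold higher, beside 1.56% of all genes. Dnase2a, the lysosomal DNase, read 9.51 and 9.02 (-0.49), and Hgsnat, an acetyltransferase of heparan sulphate breakdown, read 9.61 and 9.20 (-0.41).

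Other lysosomal membrane proteins and transporters had 6 of 16 higher (37.5%, beside 40.0% of all genes) and a median of -0.06. Tmem63a, an ion channel, stood at -0.42, Laptm4b at 0.29 and Slc17a5, the sialic acid exporter, at -0.23.

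The vacuolar ATPase pumps the protons that make the lysosome acidic. Of its 15 subunits above the floor, 4 were higher (26.7%, beside 40.0% of all genes) and 11 lower, with a median of -0.12. The number higher was 6 of 15 with median or lowess centring, beside 50.5% and 49.6% of all genes. It was 7 of 15 after a further quantile normalization, beside 44.7% of all genes. Atp6v0a2 read 9.08 and 8.42 (-0.66, 1.58-fold lower) and was the 1 subunit of 15 at least 1.5-fold lower (6.67%, beside 3.56% of all genes). Atp6v0a1 stood at -0.38 and Atp6v1f, the subunit next in size of difference, at 0.24. The list's median was -0.01 when probe sets were averaged, where 5 of 14 subunits were higher, beside 45.7% of all genes.

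In the mannose 6-phosphate sorting list 3 of 11 genes were higher (27.3%, beside 40.0% of all genes). The list's median of -0.13 turned to 0.05 when probe sets were averaged, where 5 of 10 genes were higher, beside 45.7% of all genes. Sort1, the sorting receptor sortilin, read 9.66 and 9.28 (-0.38). Gga3, an adaptor of receptor transport, stood at -0.33, with its knockout signal of 6.89 under the floor. Igf2r, the larger mannose 6-phosphate receptor, read 10.28 and 10.61 (0.33).

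Regulators of lysosome formation and mTORC1 had 7 of 14 higher and a median of 0.00, with Rraga at -0.30, Rptor at -0.28 and Lamtor4 at 0.26. Tfe3, a relative of Tfeb, read 9.29 and 9.03. Autophagy genes had 5 of 16 higher (31.25%, beside 40.0% of all genes) and a median of -0.09. Gabarapl2, an autophagosome protein, read 10.17 and 10.57 (0.40), Atg9a stood at -0.35 and Becn1 at -0.34.

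**Figure D4:**
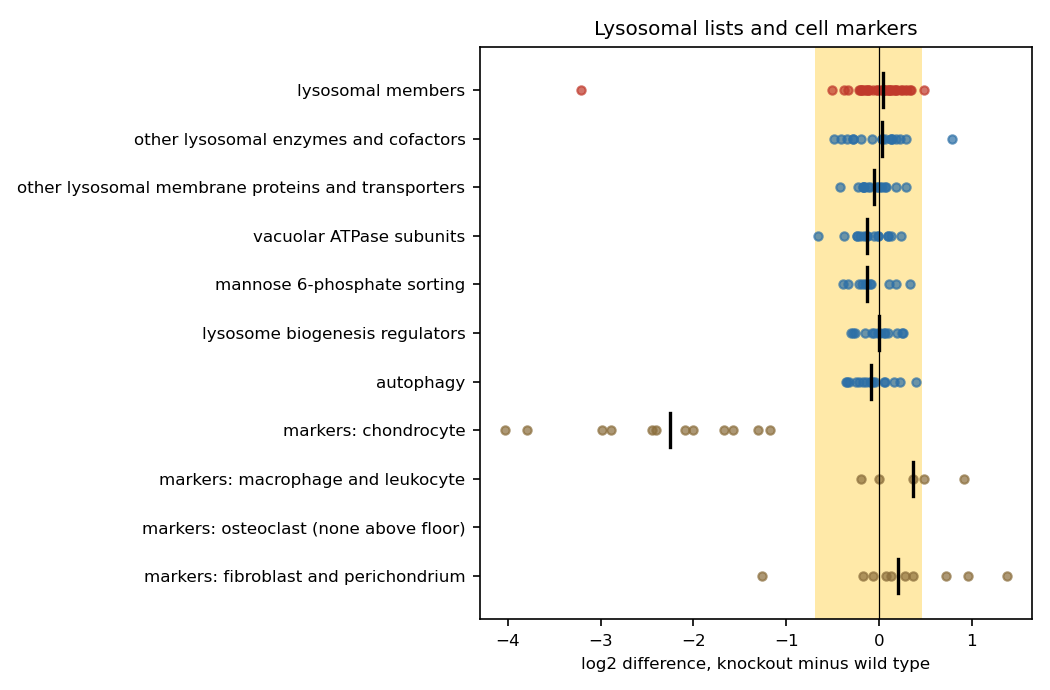
Log2 difference, knockout minus wild type (horizontal axis), of genes above the floor in the lysosomal members (red), other lysosomal lists (blue) and cell markers (brown); black lines are medians and the yellow band is the central 95% of all genes. The lysosomal lists have medians from -0.13 to 0.05, whereas the chondrocyte markers have a median of -2.25.

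The cultures differed in other ways that stand beside these values. All 12 chondrocyte markers were above the floor in the wild type and lower in the knockout, with a median of -2.25. Acan stood at -4.03, Col9a2 at -3.80, Col9a3 at -2.99 and Snorc at -2.89. The knockout signal of Col9a2, 6.06, is under the floor. The summed signal of the list was 15.96 and 13.92 on the log2 scale. Fewer chondrocytes and less of these RNAs per cell cannot be told apart.

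Of 14 fibroblast and perichondrium markers 10 were above the floor and 7 of those higher, with a median of 0.21 and a summed signal of 15.13 and 15.42. Col3a1 stood at 1.38, Postn at -1.26, Lum at 0.96 and Fbln2 at 0.72. All 9 osteoclast markers were under the floor in both arrays, between 4.09 and 6.91, with a summed signal of 9.30 in each. Acp5, an enzyme listed here as an osteoclast marker, read 6.78 and 6.91. The largest differences of the list in size were 0.31 for Mmp9, -0.22 for Calcr, -0.18 for Dcstamp and -0.17 for Tnfrsf11a. All of these are under the floor, so they are not read beside the 0.49 of Ctsk.

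Among 16 macrophage and leukocyte markers, 11 were under the floor, and the summed signal was 10.51 and 10.77. Those under the floor had no common direction. Ptprc (4.32 and 4.52) and Tyrobp (5.45 and 5.79) read higher in the knockout, Itgam (4.57 and 3.97) and Lyz2 (6.76 and 6.45) lower. Of the 5 above the floor 3 were higher (60%, beside 40.0% of all genes), with a median of 0.36. With probe sets averaged, 1 of 2 was higher and the median was 0.09. The wild-type signal of Cd53, 7.03, is next to the floor. The largest differences in size were 0.91 for Cd53, 0.49 for Laptm5, 0.36 for Cd14 and -0.19 for Adgre1. These stand beside the 0.79 of Ctsc. What part these cell markers have in the lysosomal differences was not tested.

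Wwp2, the host gene of Mir140, read 9.65 and 7.13. Xist read 7.01 and 10.60. Eif2s3y, Uty and Kdm5d, all Y-linked, read 7.75 to 8.86 in wild type against 3.87 to 4.18 in knockout. The labels give no sex, but by these genes the arrays differ in the sex make-up of their cells. A part of sex in the differences given here cannot be told apart from that of genotype. Gla, Ids and Lamp2 are X-linked and differed by 0.25, -0.34 and 0.18. Of all 303 X-linked genes above the floor, 44.2% were higher, with a median of -0.03. Without the 3 X-linked genes, 21 of 37 members were higher and the median was 0.05.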

How the data were processed

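The values are log2 signals that the authors summarised by RMA (Robust Multichip Average) according to the design text, per the labels, in Affymetrix Expression Console 1.1, per the submitters' processing notes. The log2 scale was read from the values (3.24 to 14.2). RMA normalizes arrays to a common distribution, so a shift shared by most genes is removed, and it compresses differences of dim probe sets. The number of arrays, 1 per group, limits the precision and allows no test.

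Symbols came from the platform annotation. Of 45101 probe sets, 34945 had 1 symbol and were used, 932 had several, 64 were controls and 9160 are unnamed here. For each gene the brightest probe set, by its mean over the arrays, was used, if its higher value was at least 7. Differences of at least 1.5-fold were counted. Named were all members, up to 3 genes with the largest differences of each other lysosomal list and up to 4 of each marker list. Tfe3, Aga, Man2b2, Acp5, Ptprc, Tyrobp, Itgam, Lyz2 and the genes beside Galc were added after their values were seen. Of the other listed genes, 8 are not named here. Members and lists were chosen with earlier results of these data known. The counting was run on simulated data with assumed noise and planted differences. That run did not exercise the choice of probe set and says nothing on the noise between cultures. Python 3.11.15 and pandas 2.3.3 were used.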

Additional observations from a re-analysis of the deposited data

How the results depend on the processing

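The members' median difference stayed between 0.01 and 0.10 and the number with higher signal between 18 and 26 under floors of 6 and 8 or none, averaged probe sets, probe sets of 1 transcript, lowess centring, median centring, a second quantile normalization, low values raised to 7 and, added after the data were seen, without Galc or the X-linked members. The lowest number with higher signal, 18, was of 31 members, with probe sets of 1 transcript, beside 40.4% of all genes. The highest, 26, was of 40, after the second quantile normalization, beside 44.7% of all genes. The count at least 1.5-fold higher was 0 in every setting, also with a 2-fold threshold. The count at least 1.5-fold lower, 1 (Galc), became 0 with the mean of all probe sets, where Galc lies under the floor, and 0 without Galc. Of 40 members 30 kept their sign in all settings run for them; the others were Arsb, Ctsd, Ctsf, Galns, Gm2a, Ids, Idua, Lipa, Sgsh and Smpd1. With no replicates, a value was taken as moved when it changed by more than 0.15, the median standard deviation between probe sets of a gene. By that rule 10 of 40 members moved with averaged probe sets, Gusb (0.10 to 0.45) and Ctsb (0.17 to 0.41) among them. With probe sets of 1 transcript 3 of 33 moved, and with low values raised to 7 it was 1 of 40. No paired analysis was possible because each group has 1 array. Signals near or under the floor of 7 (Galc in the knockout, Npc1, Ctss) are close to background, and differences there are the least certain.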
